A study of Rattus norvegicus with 9 samples.

Results

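Blood gene expression after experimental stroke was compared between all 6 stroke arrays of the series and its 3 Sham arrays. The stroke arrays were those of the QDBS/MCAO and YDBS/MCAO groups, 3 rats in each, and together with the Sham arrays they made up all 9 arrays. The values described are those of 18166 genes that the array annotation names by a single symbol, each represented by its brightest transcript cluster. All rats were male Sprague-Dawley rats, and their blood came from the abdominal aorta after 24 h of reperfusion. QDBS/MCAO rats (Qi deficiency blood stasis) swam to exhaustion daily for 21 days before middle cerebral artery occlusion (MCAO). YDBS/MCAO rats (Yin deficiency blood stasis) received hydrocortisone at 45 mg/kg daily for 13 days and epinephrine at 0.36 mg/kg for 1 day before the same occlusion. Sham rats had the same surgery without insertion of the filament, and no swimming or hormone treatment is described for them. No group had a stroke without pretreatment or a pretreatment without a stroke, so in the pooled comparison the stroke and the pretreatments cannot be told apart. Both models are compared with the same 3 Sham arrays.

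Middle cerebral artery occlusion blocks the main artery of a cerebral hemisphere, and its release lets blood return to the injured tissue. Injured brain sends danger signals and stress hormones into the circulation, to which neutrophils and monocytes respond by activating receptors for danger signals, the inflammasome and interleukin-1. Whole blood RNA comes from leukocytes, platelets and reticulocytes, and in bulk RNA fewer cells of a type and less RNA per cell cannot be told apart.

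More genes rose than fell by over 1 log2 unit in the stroke arrays, but not without this fold threshold. At a false discovery rate (FDR) under 0.05 from limma and an absolute log2 fold change (FC) over 1, 1779 of 18166 genes were up-regulated (9.79%) and 186 were down-regulated (1.02%). Of the up-regulated genes 98.0% had all 6 stroke arrays above all 3 Sham arrays, and of the down-regulated genes 96.2% had all of them below. The named largest changes and the leading called genes of each list were chosen among genes without overlap, so its absence there follows from the choice. At the FDR from limma alone, 4010 genes lay higher and 5613 lower. At an unadjusted p under 0.05 from limma, 4319 of 18166 genes lay higher and 6576 lower. List counts at that p given below stand beside these. Over all genes, the stroke arrays lay entirely above the Sham arrays for 3589 genes (19.8%) and entirely below them for 4700 genes (25.9%). Large changes were mostly rises, since 299 up-regulated and 15 down-regulated genes had an absolute log2 FC over 2. The median log2 FC was 1.43 among the up-regulated genes, -1.17 among the down-regulated genes and -0.16 over all genes.

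The excess of rises depended on the fold threshold and on how arrays were scaled, and the distribution of signals differed between the groups. The upper quartile of the genes' log2 signals was 5.46 to 5.62 in the Sham arrays and 5.85 to 6.0 in the stroke arrays, while the lower quartile was 3.45 to 3.54 and 3.19 to 3.26. When every array was centred on its 75th percentile, 999 genes were called higher and 1378 lower, so that 42.0% of calls were rises, against 90.5% with the deposited values. Counts of list genes given below for this centring stand beside those 999 and 1378 of 18166 genes. Quantile normalization of the 18166 genes gave 76.6%. The median log2 FC of all genes was -0.53 with the centring and -0.09 with quantile normalization. Divided into 5 equal bins by mean signal, 0.193% of the dimmest bin rose, then 0.826%, 5.81%, 19.9%, and 22.3% of the brightest. The shares that fell were 0.468%, 1.05%, 0.991%, 0.936% and 1.68%. A list of bright genes is thus better set against the 19.9% and 22.3% of the 2 brightest bins than against the 9.79% of all genes. The second Sham array had the lowest upper quartile of all 9 arrays, and without it 1434 genes were called higher and 155 lower.

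**Figure D1:**
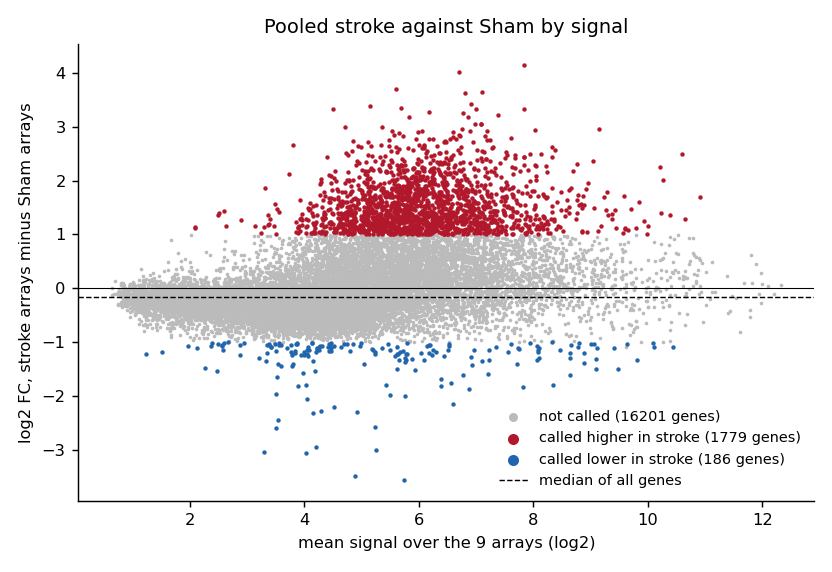
Pooled log2 FC of each of 18166 genes (vertical axis) against its mean signal over 9 arrays (horizontal axis, log2), with 1779 genes called higher in red, 186 called lower in blue and the rest in grey. Most red points lie to the right of the dimmest genes, blue points are spread over all signal levels, and the dashed line marks the median of all genes at -0.16.

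The largest rise was that of Samd9l, an interferon-induced gene that restricts viral translation. Its log2 signals in the Sham arrays were 5.51, 4.31 and 5.37, and the stroke arrays ranged from 8.76 to 9.56 with a median of 9.28. Every stroke array stood at least 3.25 above the highest Sham array, the widest such gap among the genes named here. The pooled log2 FC was 4.15 with a standard error of 0.28 (FDR = 1.6e-06 from limma, n = 6 stroke and 3 Sham rats).
Sarnp, a protein of nuclear mRNA export, had Sham signals of 4.51, 3.22 and 4.36 and stroke signals from 7.53 to 8.41 (median 8.05). The groups were again far apart, and the second Sham array was the lowest in both genes. Smc4, the core ATPase of condensin, had Sham signals of 3.09, 2.89 and 3.42 and stroke signals from 6.61 to 7.13 (median 6.81). Its Sham arrays differed little from one another, so its log2 FC of 3.71 had a standard error of 0.14 (FDR = 1.57e-07 from limma). The other rises of this size belonged to genes of varied function. Dnaja1, a co-chaperone of Hsp70, rose by a log2 FC of 3.65, Cast, the inhibitor of calpain proteases, by 3.42, and Cops2, a subunit of the COP9 signalosome, by 3.38. Rock1, a kinase that acts on the cytoskeleton downstream of RhoA, rose by 3.28, Ncl, the nucleolar protein nucleolin, by 3.22, and Cacybp, a partner of ubiquitin ligases, by 3.17. Resf1, a regulator of retroelement silencing, rose by 3.34. Igsf6, Anxa1 and Clec7a, all strongly expressed in myeloid cells, rose by 3.62, 3.33 and 3.32. FDRs of these genes from limma were at most 1.57e-05.

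Most of the largest falls were those of genes known chiefly from the liver. Cyp2e1, a cytochrome P450 that oxidises ethanol and other small molecules, had log2 signals of 7.44, 7.16 and 7.05 in the Sham arrays and from 3.56 to 3.91 in the stroke arrays (median 3.77). The Sham arrays were close together and the highest stroke array lay 3.14 below the lowest of them. Its log2 FC was -3.48 with a standard error of 0.12 (FDR = 1.57e-07 from limma).
Apoe, an apolipoprotein of liver and macrophages, had the largest fall by its mean, with Sham signals of 9.04, 6.45 and 8.87 and stroke signals from 4.39 to 4.78 (median 4.56). The second Sham array stood far below the other Sham arrays but still above every stroke array. Its log2 FC of -3.56 had a standard error of 0.45, and leaving out single arrays moved it between -4.39 and -3.09. Fgg, the gamma chain of fibrinogen, had the same feature, with Sham signals of 6.67, 3.71 and 5.63 and stroke signals from 2.06 to 2.49 (median 2.29). Its fall of 3.04 on the log2 scale thus rested on Sham arrays that differed from each other by nearly as much. Ttr, the plasma carrier of thyroxine, had no such spread, with Sham signals of 7.37, 7.30 and 7.10 and stroke signals from 4.11 to 4.53 (median 4.18). Vtn, the adhesive plasma protein vitronectin, fell by 3.05 on the log2 scale, and Cyp2a3, a cytochrome P450 not counted here as a liver gene, by 2.95. Apob, the main protein of low-density lipoprotein, fell by 2.59, and Cdo1, which oxidises cysteine, by 2.57. Gc, the vitamin D-binding protein, fell by 2.45, Cps1, the entry enzyme of the urea cycle, by 2.31, and Hpx, the heme scavenger hemopexin, by 2.27. S100a1, a calcium-binding protein of muscle, also belonged to the largest falls, with a log2 FC of -2.29.

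**Figure D2:**
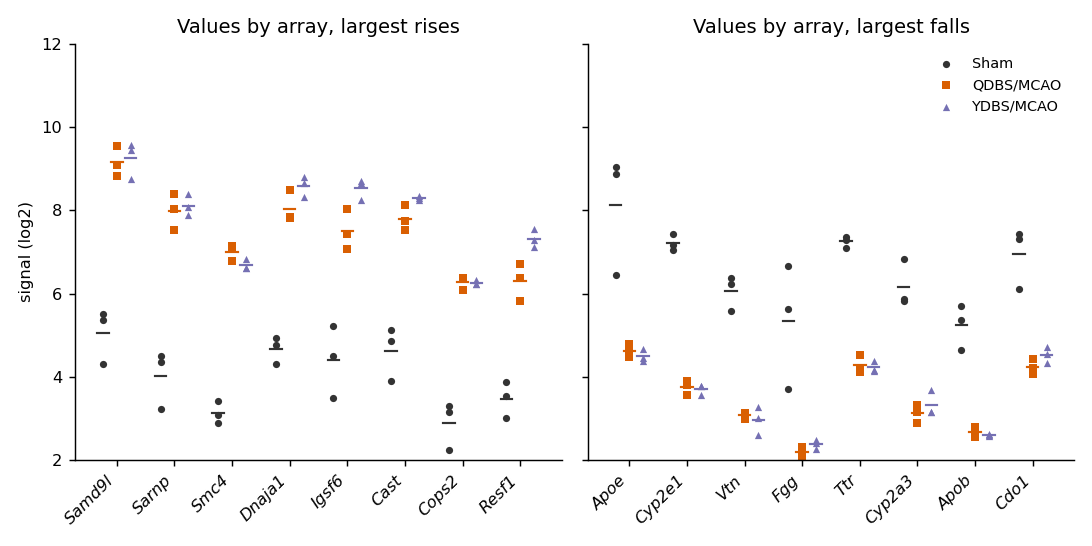
Log2 signal (vertical axis) of each array for the 8 largest rises (left) and the 8 largest falls (right), with Sham as circles, QDBS/MCAO as squares, YDBS/MCAO as triangles and the group mean as a short line. Stroke arrays of both models lie together on the same side of the Sham arrays in all panels, and 1 Sham array of Apoe and of Fgg lies well below the others.

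Most called genes differed by less than 1 log2 unit between the models. The measure used was the 95% interval of the difference QDBS/MCAO minus YDBS/MCAO, which does not involve the Sham arrays except through the error estimate. This interval lay within -1 and 1 on the log2 scale for 1504 up-regulated genes (84.5%) and 134 down-regulated genes (72.0%). It did so for 94.5% of all genes, most of which changed little, and list counts given below stand beside that share. The median absolute difference between models was 0.20 among the up-regulated genes and 0.18 among the down-regulated genes, compared with 0.12 over all genes and with median log2 FCs of 1.43 and -1.17. Smc4 is an example, with 3.87 in QDBS/MCAO and 3.55 in YDBS/MCAO against Sham and an interval of the difference from -0.02 to 0.67. Large falls of liver genes were also close in size in the models. Cyp2e1 had log2 FCs of -3.46 and -3.51 (interval of the difference -0.26 to 0.37), Ttr -2.98 and -3.02 (-0.28 to 0.35). The fall of S100a1 outside this group was alike too, with -2.27 and -2.30 (-0.32 to 0.37). Measured against Sham, 1494 up-regulated genes reached a log2 FC of 1 in each model, 121 reached it in QDBS/MCAO alone and 164 in YDBS/MCAO alone. Of the down-regulated genes these counts were 118, 46 and 22. A call required the mean of both models to pass this size, so at least 1 model had to reach it. Both models were also compared with the same Sham arrays, so these counts are no separate measure of likeness.

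Few called genes differed between the models at the FDR threshold, which with 3 rats in each does not show the others to be alike. Over all genes, 83 (0.457%) differed between QDBS/MCAO and YDBS/MCAO at a FDR under 0.05 from limma, 2 of them higher in QDBS/MCAO, and 1912 had an unadjusted p under 0.05. By size alone, 65 up-regulated and 4 down-regulated genes differed by more than 1 log2 unit. At the FDR threshold 19 up-regulated and 2 down-regulated genes differed, and all 21 were lower in QDBS/MCAO. These counts were unstable, since the count of 83 moved between 0 without the second QDBS/MCAO array and 291 without the second Sham array. The widest difference was that of Siglec8, a sialic acid receptor known in humans from eosinophils. Its Sham signals were 6.51, 5.66 and 6.46 and the stroke signals ran from 6.39 to 10.29 (median 8.88). The lowest stroke array therefore overlapped the Sham arrays, and the log2 FC against Sham was 1.23 in QDBS/MCAO and 3.65 in YDBS/MCAO (difference -2.42, FDR = 0.0412 from limma). Clec4b2, a C-type lectin receptor, had log2 FCs of 0.83 and 2.78, Il1r2, the decoy receptor of interleukin-1, 0.60 and 2.42, and Bmx, a Tec family kinase, 0.50 and 2.27. Wfdc15b, a WAP domain protein, had 1.43 and 3.17, and Serpinb10, a serpin of bone marrow cells, 0.67 and 2.37. With the methods' t-test the pooled rises of Siglec8, Clec4b2, Il1r2, Bmx and Serpinb10 did not pass, with FDRs from 0.0611 to 0.101.

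**Figure D3:**
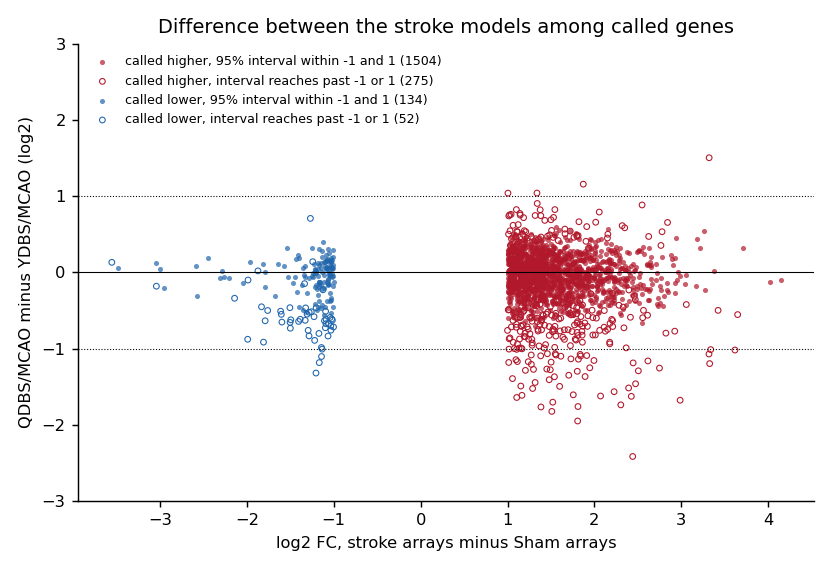
Difference QDBS/MCAO minus YDBS/MCAO (vertical axis, log2) against the pooled log2 FC (horizontal axis) for 1779 genes called higher (red) and 186 called lower (blue). Filled points have a 95% interval of the difference within -1 and 1 (1504 and 134 genes), open points do not, and the points farthest below 0 are genes such as Siglec8 at -2.42.

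Genes of the type I interferon response rose unevenly. Interferon-induced genes are switched on by the complex ISGF3 and by interferon regulatory factors, which bind short purine-rich elements close to the start site. Of 37 measured genes of this list 13 rose (35.1%, against 9.79% of all genes) and none fell. The list had a median of 0.70 on the log2 scale. Taken relative to that of all genes it was 0.85, and 0.43 and 0.38 under quantile normalization and cyclic loess, which called 12 and 13 genes. Ifih1, the cytosolic sensor of long double-stranded RNA, had Sham signals of 3.93, 3.73 and 3.27 and stroke signals from 6.15 to 6.73 (median 6.36). All stroke arrays lay at least 2.21 above the Sham arrays, and the log2 FC was 2.75 with a standard error of 0.18 (FDR = 1.33e-06 from limma). Ifit2, which binds RNA and restricts translation, had Sham signals of 4.29, 3.95 and 4.0 and stroke signals from 5.87 to 7.49 (median 6.88). Members that did not pass the test, chosen after their values were seen, included Isg15, the ubiquitin-like modifier, with a log2 FC of 0.92, Rsad2, the antiviral enzyme viperin, with 0.28, Oas1a, which makes the activator of RNase L, with -0.41, and Irf7, the regulator of interferon production, with -0.65.

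The promoters of 3 risen members are shown because they hold the core of the interferon-stimulated response element, searched as AAANNGAAA on both strands. Sequences are the 250 bases before the start site from RefSeq (GRCr8) and capitals mark the match, which appears as its reverse complement where it lies on the opposite strand. Ifih1 lies at chr3:67683969-67684218 on the minus strand, Ifit3 at chr1:241527076-241527325 on the plus strand and Parp14 at chr11:78407884-78408133 on the plus strand.
Ifih1: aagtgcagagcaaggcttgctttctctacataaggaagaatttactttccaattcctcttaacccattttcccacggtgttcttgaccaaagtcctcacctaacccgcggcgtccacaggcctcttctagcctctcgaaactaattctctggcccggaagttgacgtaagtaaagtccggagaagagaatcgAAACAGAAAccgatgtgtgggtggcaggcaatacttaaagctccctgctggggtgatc
Ifit3: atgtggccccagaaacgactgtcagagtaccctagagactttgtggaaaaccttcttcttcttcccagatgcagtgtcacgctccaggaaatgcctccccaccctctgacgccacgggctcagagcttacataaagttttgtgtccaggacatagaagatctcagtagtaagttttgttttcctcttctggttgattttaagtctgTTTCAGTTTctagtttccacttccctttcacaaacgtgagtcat
Parp14: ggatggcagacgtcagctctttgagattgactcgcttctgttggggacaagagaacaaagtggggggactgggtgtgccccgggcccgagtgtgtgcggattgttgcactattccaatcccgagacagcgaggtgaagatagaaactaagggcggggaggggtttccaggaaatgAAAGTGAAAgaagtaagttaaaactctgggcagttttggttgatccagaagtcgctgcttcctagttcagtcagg
Counted from the start site, the matches begin at -58, -44 and -75. Ifit3, which binds Ifit1 and Ifit2, had a log2 FC of 2.37, and Parp14, a mono-ADP-ribosyltransferase, of 2.00. For the shares that follow, the search ran from 250 bases before to 50 after the start site, wider than the sequences shown. Of 27 interferon genes with a promoter sequence 17 held this core (63.0%), and of the 10 called ones 6 did (60.0%). Among all measured genes with a promoter sequence 9.65% held it, among the up-regulated genes 9.36%, and 11.5% among all 27457 promoters of the RefSeq set. The core is short and a match does not show a site in use.

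Of 22 genes of the inflammasome and interleukin-1, the main alarm cytokine of myeloid cells, 12 rose (54.5%, against 9.79% of all genes) and none fell. Casp1, the protease that matures interleukin-1 beta, had Sham signals of 5.25, 4.21 and 4.89 and stroke signals from 7.38 to 8.12 (median 7.68). The groups did not overlap, and both models had nearly the same change, 2.90 and 3.01, with an interval of the difference from -0.69 to 0.48. Il18rap, the accessory chain of the interleukin-18 receptor, rose by a log2 FC of 3.06 with 2.85 and 3.27 in the models. Il1b, interleukin-1 beta itself, had Sham signals of 7.88, 7.31 and 7.80 and stroke signals from 8.33 to 10.43 (median 9.79). Its log2 FC was 1.32 in QDBS/MCAO and 2.57 in YDBS/MCAO (interval of the difference -1.89 to -0.62, FDR of the difference = 0.0985 from limma). The sensors Nlrp3 and Nlrp1a and the kinases Irak4 and Irak3 rose by 1.16, 1.39, 1.86 and 1.22. The adaptor Pycard and the pore-forming Gsdmd had log2 FCs of 0.25 and 0.05 and did not pass the test.

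Toll-like receptor and NF-kB genes rose in 7 of 26 cases (26.9%, against 9.79% of all genes), among them Tab2 (log2 FC 1.70) and its kinase Map3k7 (1.57), Tlr1 (1.61) and Tlr6 (1.28), both partners of Tlr2, and the subunits Rel (1.32) and Nfkb1 (1.04). Tlr4, the receptor of endotoxin, had 0.41 and its co-receptor Cd14 -0.38, and neither passed. Without the second Sham array 4 genes of the list were called (15.4%), and with centring on the 75th percentile 3 (11.5%). That centring called 999 of all 18166 genes higher. The list's median signal of 5.76 lay in the second brightest bin, of which 19.9% rose. Of 28 apoptosis genes 8 rose (28.6%, against 9.79% of all genes), and these held both inhibitors and effectors. Centring on the 75th percentile left 4 called higher and 1 lower. The apoptosis genes had a median signal of 5.81, in that second brightest bin. Bcl2, which blocks the mitochondrial pathway, had Sham signals of 5.38, 4.89 and 5.04 and stroke signals from 6.76 to 7.72 (median 7.18), with a log2 FC of 2.14 (standard error 0.19, FDR = 9.07e-06 from limma). The stroke arrays stood clear of the Sham arrays. Xiap and Birc2, which inhibit cell death, rose by 1.67 and 1.06, Cflar, the decoy of caspase 8, by 1.46, and the effectors Apaf1 and Casp8 by 1.43 and 1.34.

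Glucocorticoid-induced genes did not move one way. Of 23 genes of this list, which holds the receptor itself, 5 rose (21.7%, against 9.79% of all genes). Of the same genes 2 fell (8.70%, against 1.02%), and the median log2 FC was -0.03. The list's median signal of 6.35 lay in the brightest bin, of which 22.3% rose. Anxa1, which limits leukocyte migration, had Sham signals of 5.38, 4.15 and 4.81 and stroke signals from 6.82 to 8.95 (median 8.25), with a log2 FC of 2.73 in QDBS/MCAO and 3.93 in YDBS/MCAO. All stroke arrays were above the Sham arrays in both models. Nr3c1, the receptor itself and not counted as its own target, rose by 2.28 and 2.46 in the models. Rgs2, a regulator of G protein signalling, rose by 1.57 and 2.39. Tsc22d3 and Per1, targets of the receptor, had pooled log2 FCs of -0.03 and -0.59 and did not pass the test. The 2 that fell were Pck1, which makes glucose in liver and kidney, and Tat, a liver enzyme, with -1.35 and -1.43. In the hypoxia list 5 of 23 rose (21.7%, against 9.79% of all genes and 22.3% of the brightest bin, where its median signal lay). The calls became 3 rises and 1 fall without the second Sham array and 2 rises and 1 fall with centring on the 75th percentile. Hif1a, the oxygen-regulated transcription factor, had Sham signals of 5.75, 4.54 and 5.63 and stroke signals from 7.63 to 8.09 (median 7.88). Its stroke arrays were tightly grouped and the log2 FC was 2.56. Kdm3a and P4ha1, 2 of its targets, rose by 1.89 and 1.32, whereas Vegfa, Adm and Ldha had log2 FCs of -0.16, -0.29 and -0.29. Of 38 MAP kinase genes 5 were called higher (13.2%), a share near the 9.79% of all genes, and 3 were without the second Sham array or with centring on the 75th percentile. Those called included Map3k2 (1.97), Map3k7 and Map2k4 (1.52).

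Blood cell markers moved to different degrees within most types. As a check of the tissue, Hbb-b1 and Hba-a1, adult globins of red cells, were detected with Sham signals of 12.07 to 12.24 and 11.02 to 11.94, and the pooled log2 FCs were -0.28 and 0.10, the latter -0.20 without the second Sham array and -0.28 with centring on the 75th percentile. Of 8 measured genes of blood cell identity 1 rose (12.5%, near the 9.79% of all genes). This was Ptprc, the leukocyte phosphatase CD45, with Sham signals of 7.67, 6.16 and 7.69, stroke signals from 10.02 to 10.30 (median 10.11) and a log2 FC of 2.96. Its stroke arrays of both models lay within a narrow range, while Tyrobp, an adaptor of myeloid receptors, had a log2 FC of 0.16 and Coro1a, an actin regulator of leukocytes, 0.14.
Of 20 monocyte genes 7 rose (35%, against 9.79% of all genes) and none fell. Ccr2, the receptor that draws monocytes out of the marrow, had Sham signals of 5.55, 5.80 and 5.93 and stroke signals from 8.21 to 9.18 (median 8.38). The groups were apart by more than 2 log2 units, and Clec7a, the beta-glucan receptor, and Igsf6 had larger changes still. Csf1r and Cd14, markers of the same cells chosen after their values were seen, had log2 FCs of -0.10 and -0.38. The monocyte list had a median of 0.14, and at an unadjusted p under 0.05 from limma 9 of its genes lay higher and 2 lower.
In the T cell list 5 of 23 genes rose (21.7%, against 9.79% of all genes), and 3 with centring on the 75th percentile. Its median signal of 7.9 lay in the brightest bin, of which 22.3% rose. Il7r, the interleukin-7 receptor, rose by 2.40, Cd2, an adhesion receptor, by 1.72 and Trat1, a partner of the T cell receptor, by 1.69. The receptor chain Cd3e, the kinase Lck and the surface antigen Cd5 had 0.37, 0.37 and -0.09.

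B cell genes rose in 9 of 20 cases (45.0%, against 9.79% of all genes). Their median log2 FC of 0.85 was the highest among the cell type lists. All 20 had a log2 FC above 0, the lowest being 0.28, and 16 lay higher at an unadjusted p under 0.05 from limma. The list medians were 1.24 in QDBS/MCAO and 0.58 in YDBS/MCAO, and for 6 of the 20 genes the interval of the difference between models lay within -1 and 1. Ms4a1, the antigen CD20, had Sham signals of 5.34, 4.17 and 4.94 and stroke signals from 7.01 to 8.44 (median 7.70), and the groups did not overlap. Its log2 FC was 2.84, and those of Bank1, a scaffold of B cell receptor signalling, and Ralgps2, an exchange factor of Ral, were 1.82 and 1.77. Cd79a, a signalling chain of the B cell receptor, was the gene at 0.28 and did not pass. Natural killer cell genes rose in 7 of 18 cases (38.9%) and in 4 with centring on the 75th percentile, and 12 lay higher at an unadjusted p under 0.05. The interval of the difference between models lay within -1 and 1 for 17 of the 18, compared with 94.5% of all genes. The largest rises were those of Klrk1, the activating receptor NKG2D, with a log2 FC of 2.63, Gzma, the protease granzyme A, with 2.53 and Klri1, a lectin-like receptor, with 1.83. Klrk1 had Sham signals of 5.18, 4.54 and 5.24 and stroke signals from 7.45 to 7.95 (median 7.58), so no array of 1 group entered the range of the other. Klrg1 and Nkg7, expressed by the same cells, had 0.08 and 0.53.
Neutrophil genes rose in 10 of 26 cases (38.5%, against 9.79% of all genes) and 1 fell (3.85%, against 1.02%). Of the 26 genes 12 had an interval of the difference between models within -1 and 1. Cybb, the catalytic subunit of the phagocyte oxidase, had Sham signals of 7.77, 7.08 and 7.65 and stroke signals from 8.91 to 9.51 (median 9.08). Its groups did not overlap and the models were alike, with 1.72 and 1.55. Mcemp1 and Fpr1, the latter the receptor of formylated peptides, rose by 2.00 and 1.76 in the pooled comparison, with 2.57 and 2.56 in YDBS/MCAO and 1.42 and 0.95 in QDBS/MCAO (FDRs of the difference 0.131 and 0.0659 from limma). The rise of Fpr1 did not pass the methods' t-test (FDR = 0.0543). Lcn2, which binds bacterial siderophores, fell by 1.22 on the log2 scale, and Camp and Cd177, made like Lcn2 by maturing neutrophils, had -0.95 and -0.79. With centring on the 75th percentile 6 neutrophil genes were called higher and 6 lower.

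Platelet genes went both ways. Of 19 measured genes 8 fell (42.1%, against 1.02% of all genes) and 2 rose (10.5%, near the 9.79% of all genes). The median log2 FC was -0.68. Without the second Sham array 4 fell. The list medians were -0.98 in QDBS/MCAO and -0.44 in YDBS/MCAO, and the interval of the difference lay within -1 and 1 for 3 of the 19 genes. Slc6a4, the serotonin transporter, had Sham signals of 9.60, 9.46 and 9.54 and stroke signals from 7.19 to 8.93 (median 7.48). The Sham arrays were almost equal, the stroke arrays varied, and all lay below, for a log2 FC of -1.79 (standard error 0.28, FDR = 0.000473 from limma). Gp5, Gp9 and Gp1ba of the von Willebrand factor receptor fell by 1.32, 1.09 and 1.09, and Itga2b, a chain of the fibrinogen receptor, by 1.09. Rgs18, a regulator of G protein signalling in platelets, had Sham signals of 7.60, 7.92 and 7.57 and stroke signals from 8.03 to 10.33 (median 9.63). It rose by 1.84, and Mmrn1, a protein of alpha granules, by 1.78, so that single platelet genes moved in opposite directions in the same arrays.
Erythroid genes included 2 falls (7.407%, against 1.02% of all genes) and 1 rise (3.704%, against 9.79%) among 27. The list's median signal of 6.55 lay in the brightest bin, of which 22.3% rose and 1.68% fell. Gata1 and Tal1, transcription factors of red cell and platelet precursors, fell by 1.03 and 1.26, and Epb41, a protein of the membrane skeleton, rose by 1.05. None of these 3 calls held without the second Sham array, with log2 FCs of -0.98, -0.95 and 0.82, and with centring on the 75th percentile 6 erythroid genes were called lower and none higher. The interval of the difference between models lay within -1 and 1 for 8 of the 27. None of 20 neural and none of 17 endothelial genes was called by limma. At an unadjusted p under 0.05, 11 and 12 of them lay lower and 0 higher, beside 6576 lower and 4319 higher of all 18166 genes. With centring on the 75th percentile 5 neural genes (25%) and 4 endothelial genes (23.5%) were called lower. Mbp, the myelin basic protein, had a log2 FC of 0.15, which was -0.23 with that centring, Rbfox3, a neuronal splicing factor, -0.64, Esam, an endothelial adhesion molecule, -0.64, and Tie1, an endothelial receptor kinase, -0.27. The medians of both lists were below 0, at -0.38 and -0.46.

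Genes of hepatocytes fell more often than those of any other list. Of 32 measured genes 21 fell (65.6%, against 1.02% of all genes), none rose, and the median log2 FC was -1.23. Over the list, the median signal of an array was 4.54 to 4.82 in the Sham arrays and 2.92 to 3.20 in the stroke arrays, without overlap. Without the second Sham array 23 fell. The change was of similar size in the models, with list medians of -1.24 and -1.22. For 29 of the 32 genes the interval of the difference between models lay within -1 and 1, compared with 94.5% of all genes. The medians of the stroke arrays lay close to 3.06, where the dimmest bin of genes ended, so the models had little room to differ. Both models were also compared with the same Sham arrays. The hepatocyte list is broader than plasma proteins alone: the falls included Alb, serum albumin (-1.81), Ass1, an enzyme of the urea cycle (-1.99), Fabp1, the liver fatty acid-binding protein (-1.53), and F2, prothrombin (-1.64). Hp, Ahsg and Cyp3a2 had log2 FCs of -0.20, -0.45 and 0.00 and did not pass the test. The source of these transcripts in blood was not tested.

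The albumin and plasminogen promoters are shown because they belong to the 3 of 28 hepatocyte promoters (10.7%) that held the core of the binding element of HNF1, a liver transcription factor, searched as GTTAATNAT on both strands. Among all measured genes with a promoter sequence 0.607% held it, and 0.750% of all 27457 promoters of the RefSeq set. These shares, too, were counted from 250 bases before to 50 after the start site. Sequences are again the 250 bases before the start site from RefSeq (GRCr8), with the match in capitals. Alb lies at chr14:17906980-17907229 and Plg at chr1:50915407-50915656, both on the minus strand.
Alb: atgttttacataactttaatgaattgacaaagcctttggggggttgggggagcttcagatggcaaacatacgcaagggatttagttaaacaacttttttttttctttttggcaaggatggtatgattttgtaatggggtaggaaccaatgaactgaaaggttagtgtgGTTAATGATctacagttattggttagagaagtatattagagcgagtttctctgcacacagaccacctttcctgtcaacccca
Plg: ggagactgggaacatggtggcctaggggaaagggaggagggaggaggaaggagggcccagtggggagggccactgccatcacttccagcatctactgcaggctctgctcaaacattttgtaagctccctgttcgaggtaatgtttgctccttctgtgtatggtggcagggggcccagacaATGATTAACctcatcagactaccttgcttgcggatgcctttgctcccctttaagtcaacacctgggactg
The matches begin at -82 in Alb and, on the opposite strand, at -70 in Plg. Alb had Sham signals of 5.31, 4.73 and 5.27 and stroke signals from 3.02 to 3.47. Plg, the precursor of plasmin, had 4.67, 5.03 and 4.78 and from 3.22 to 3.79, with a log2 FC of -1.24. In both genes every stroke array was below every Sham array.

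Genes of chromosome structure and RNA processing rose in large shares. Cohesin and condensin are rings that hold and fold chromatin, and their list here also held Smc6 of the related SMC5/6 complex. Of the 20 measured genes of this list 12 rose (60.0%, against 9.79% of all genes) and none fell, and the median log2 FC was 1.57. Besides Smc4, Smc6 of the SMC5/6 complex had Sham signals of 4.23, 3.92 and 4.45 and stroke signals from 6.59 to 7.03 (median 6.73), and Stag2 of cohesin 5.15, 4.55 and 5.17 and from 6.96 to 7.69 (median 7.52). All stroke arrays of both genes lay above the Sham arrays, by at least 2.14 and 1.79. For all 20 genes of the list the interval of the difference between the models lay within -1 and 1, compared with 94.5% of all genes. Condensin members other than Smc4 did not rise alike, since Ncapg and Ncapd2 had log2 FCs of -0.02 and 0.30.
Of 30 chromatin genes 17 rose (56.7%). Baz1a, a subunit of remodelling complexes, rose by 2.54, Setd2, which methylates lysine 36 of histone H3, by 2.39 and Kdm5a, a histone demethylase, by 2.00. Of 34 heterogeneous nuclear ribonucleoproteins and SR proteins, which package and splice pre-mRNA, 17 rose (50%), led by Hnrnpa2b1 (2.60), Hnrnpu (2.49) and Hnrnpm (2.32). With centring on the 75th percentile 8 of them rose. Hnrnpu had Sham signals of 6.46, 6.09 and 6.29 and stroke signals from 8.59 to 8.97 (median 8.71), so that its groups were more than 2 log2 units apart.

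In the nuclear pore list, which also held the import factor Kpna4, 13 of 36 genes rose (36.1%, against 9.79% of all genes). Tpr of the nuclear basket had a log2 FC of 2.83 and Ranbp2 of the cytoplasmic filaments 2.61. Tpr had Sham signals of 4.78, 4.78 and 4.94 and stroke signals from 7.46 to 7.82 (median 7.69), among the tightest groups of the large rises. Translation initiation factors rose in 18 of 44 cases (40.9%), with Eif3a, the largest subunit of the scaffold eIF3, at 2.37, Eif3m at 2.18 and Eif2s1, the stress-regulated alpha subunit of eIF2, at 2.17. Ubiquitin-specific proteases rose in 18 of 46 cases (39.1%), among them Usp16 (2.72), Usp14 of the proteasome (2.64) and Usp25 (2.53). DEAD and DEAH box helicases rose in 16 of 44 (36.4%), with Ddx6 of mRNA decay at 2.27, proteasome genes in 12 of 43 (27.9%), with Psma4 at 2.18, and vesicle coat and Golgi genes in 10 of 32 (31.2%), with Arcn1 of the COPI coat at 2.36. None of these lists except the nuclear pore, with 1 gene, held a fall. The proteasome genes had a median signal of 6.45, in the brightest bin, of which 22.3% rose.
Not every housekeeping family moved in this way. Of 81 cytosolic ribosomal protein genes 10 rose (12.3%) with a median log2 FC of 0.15, although Rpl4 had Sham signals of 9.11, 8.55 and 9.11 and stroke signals from 10.74 to 11.09 (median 10.96). Ribosomal protein genes have many near-identical pseudogenes, so their values are uncertain. Mitochondrial ribosomal proteins rose in 5 of 71 cases (7.04%) and respiratory chain genes in 7 of 106 (6.60%), both below the 9.79% of all genes. Without the second Sham array the cytosolic, mitochondrial and respiratory genes called higher numbered 6, 2 and 4. With centring on the 75th percentile they numbered 6, 1 and 3, and 2, 0 and 13 were called lower.

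Families known chiefly from tissues other than blood had few rises at the deposited scaling, and their genes were dim. Median signals of the lists in this paragraph ran from 1.61 to 4.48, where 0.193% to 5.81% of a bin rose. Centring on the 75th percentile called more genes of these families lower, as it did over all genes. None of 159 vomeronasal receptors, 87 potassium channels, 72 neurotransmitter receptors, 52 cadherins and protocadherins or 36 collagens passed both criteria in limma. With that centring 8, 7, 6, 3 and 9 of them were called lower and none higher. At an unadjusted p under 0.05, 52, 59, 37, 39 and 30 of them lay lower and 1, 2, 1, 0 and 0 higher. Over all 18166 genes 6576 lay lower and 4319 higher at that p. Their median log2 FCs lay between -0.46 and -0.20, below 0 like that of all genes. Relative to the median of all genes, that of the neurotransmitter receptors was -0.13 and changed sign under quantile normalization and cyclic loess. Olfactory receptors had 2 falls among 65 (3.08%, against 1.02% of all genes). One was that of Olr1214, with Sham signals of 4.27, 6.27 and 3.77 and stroke signals from 3.31 to 3.65. Its log2 FC of -1.24 was -0.49 without the second Sham array, which left 1 fall in the list, and the FDR was 0.0796 with the methods' t-test, 0.0788 with quantile normalization and 0.0744 with cyclic loess. Keratins had 1 fall among 45 (2.22%), that of Krt18, a keratin of simple epithelia, with a log2 FC of -1.29. Cytochromes P450 had 4 falls among 69 (5.80%, against 1.02% of all genes). With centring on the 75th percentile 7 olfactory receptors (10.8%), 8 keratins (17.8%) and 12 cytochromes P450 (17.4%) were called lower. Solute carriers had 11 rises and 6 falls among 309 (3.56% and 1.94%), with 6 and 4 without the second Sham array. Centring on the 75th percentile gave 6 and 25, and falls outnumbered rises there as over all genes.

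**Figure D4:**
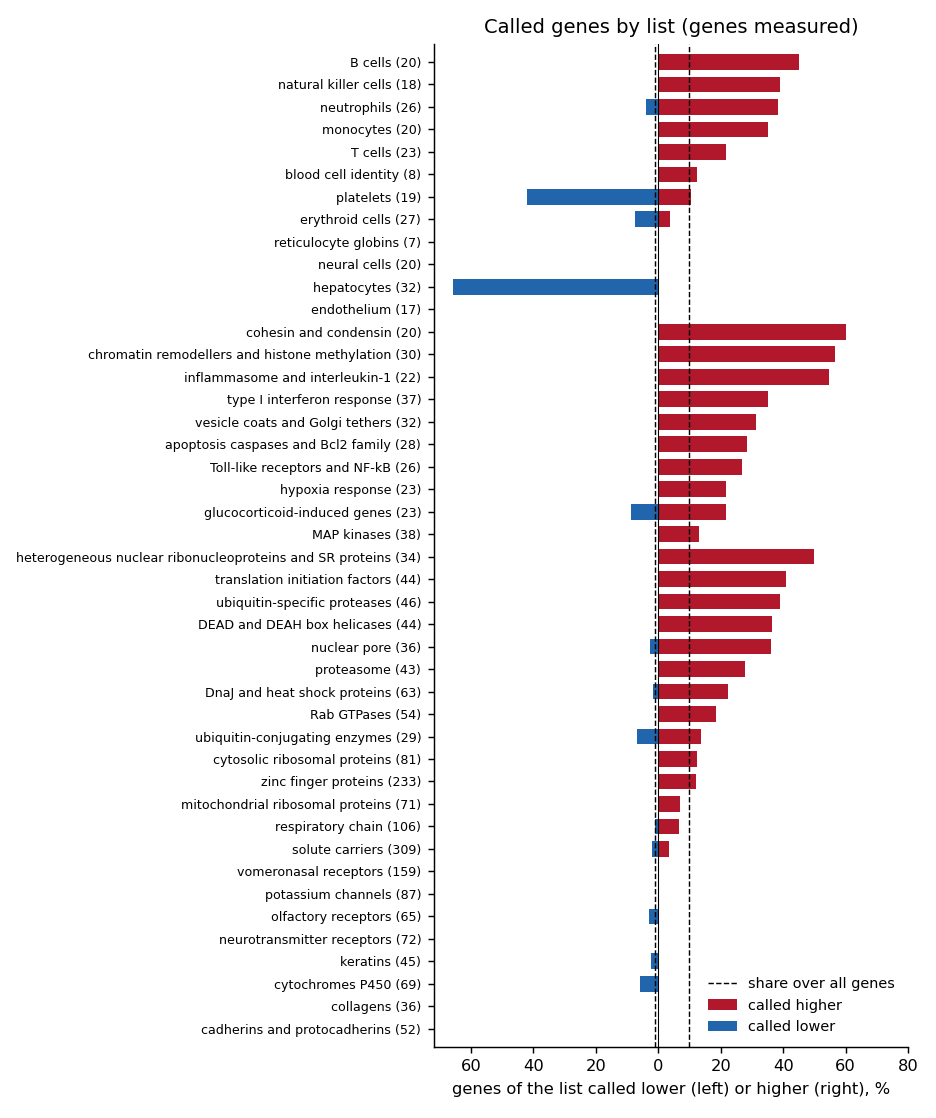
Share of measured genes (horizontal axis, %) called higher (red, to the right) or lower (blue, to the left) in each of 44 gene lists (vertical axis, number measured in parentheses), with dashed lines at the shares over all genes, 9.79% and 1.02%. The longest red bars are those of cohesin and condensin (60.0%) and chromatin genes (56.7%), and the longest blue bars those of hepatocytes (65.6%) and platelets (42.1%).

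Called genes differed from others in the length of the gene on the chromosome. Genomic span was taken from RefSeq (GRCr8) and was known for 18054 genes. Its median was 37.6 kb among the up-regulated genes and 12.2 kb among the down-regulated genes, compared with 17.2 kb over all genes and 17.6 kb among genes of the 2 brightest signal bins that were not called. The comparison was then restricted to 7230 genes of these 2 bins, divided into quintiles by span. Of the shortest genes, up to 6.87 kb, 6.50% rose, and the next quintiles had 12.6%, 20.2% and 32.2%. Of the longest genes, over 62.6 kb, 34.2% rose. The shares that fell ran the other way, from 2.28% of the shortest to 0.553% of the longest. The median log2 FC against Sham went from -0.04 in the shortest to 0.64 in the longest genes in QDBS/MCAO, and from -0.08 to 0.65 in YDBS/MCAO, both against the same Sham arrays. Mean signal hardly differed between the quintiles of span, with medians from 6.07 to 6.14. Within the brightest bin of genes alone, the share that rose went from 8.56% to 38.0% with span, and within the second brightest from 4.43% to 30.3%, where the next to longest quintile was at 31.9%. Under the alternatives at the same thresholds the share ranged from 4.08% to 7.33% in the shortest and from 19.1% to 37.8% in the longest genes, in each case lowest with centring on the 75th percentile. This comparison was chosen after values were seen, genes are not independent replicates, and no test was made. Transcript length was not analysed here. The study's methods name a kit for 3′ in vitro transcription for labelling, together with an array whose probes cover whole transcripts. RNA quality was not measured by values used here, and the part of labelling and of RNA quality in the result was not tested.

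**Figure D5:**
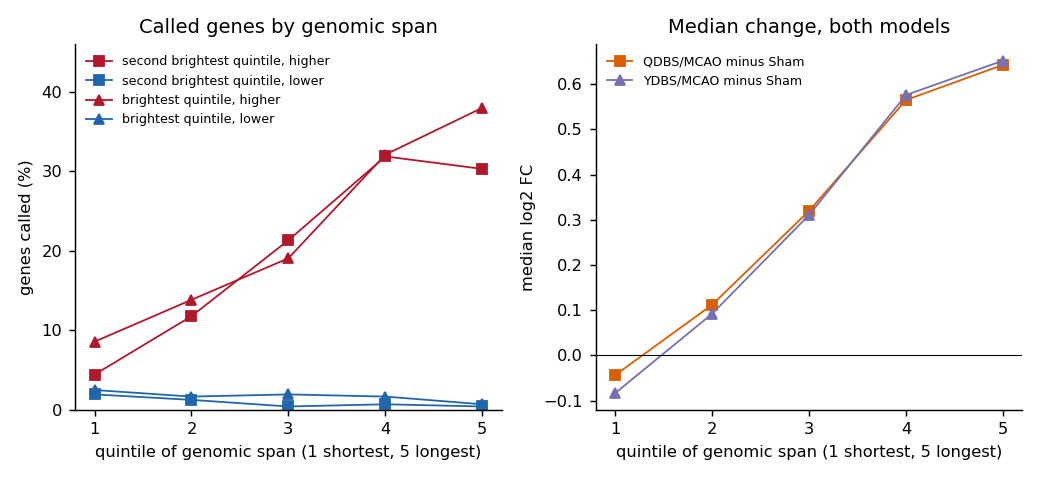
Left, share of genes called (vertical axis, %) by quintile of genomic span (horizontal axis, from shortest to longest) within each of the 2 brightest signal bins, red for higher and blue for lower. Right, median log2 FC against Sham by quintile of span for both models over 7230 genes. The share called higher is 8.56% in the shortest and 38.0% in the longest quintile of the brightest genes, and the lines of both models nearly coincide.

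Promoters of up-regulated genes were rich in CpG, as were those of other bright genes. CpG dinucleotides were at over 0.6 of the number expected from base composition in 77.1% of the promoters of up-regulated genes and 74.2% of those of uncalled genes in the 2 brightest bins, compared with 52.7% over all genes and 32.9% among the down-regulated genes. The window ran from 250 bases before to 50 after the start site. The motif GAGGAAGT, a core bound by the myeloid and lymphoid factor PU.1, was found on either strand in 5.15% of 1495 promoters of up-regulated genes. It was in 2.39% of all 14504 measured genes with a promoter sequence, in 2.34% of bright uncalled genes, in 2.14% of down-regulated genes and in 2.44% of all promoters of the RefSeq set. The cyclic AMP response element TGACGTCA was in 2.68% of promoters of up-regulated genes and 2.42% of all. These shares are descriptions and were not tested. Among chromosomes with at least 100 measured genes, up-regulated genes were found on each, with shares from 6.50% on chromosome 20 to 15.8% on chromosome 18.

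MicroRNA genes moved little. Their clusters do not measure the mature microRNA, only transcripts that cover its gene. Of 363 microRNA genes 3 were called higher (0.826%, against 9.79% of all genes) and 6 lower (1.65%, against 1.02%). Their median log2 FC was -0.25. Mature sequences from RefSeq (GRCr8) are shown for the called gene with the largest rise (chrX:65151450-65151470, plus strand), for a pair of falls with a common seed (chr17:16320145-16320166 and chr1:67350243-67350264, plus strand) and for the largest fall (chr2:176931663-176931684, minus strand), with the seed (bases 2 to 8) in capitals.
rno-miR-223-3p: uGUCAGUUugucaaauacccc
rno-let-7a-5p: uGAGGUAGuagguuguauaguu
rno-let-7e-5p: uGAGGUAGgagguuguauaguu
rno-miR-92b-3p: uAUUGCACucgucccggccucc
Mir223, which is characteristic of granulocytes and monocytes, had Sham signals of 5.66, 5.33 and 5.81 and stroke signals of 6.23, 5.95 and 7.40 in QDBS/MCAO and 7.56, 8.85 and 8.46 in YDBS/MCAO. All stroke arrays were above the Sham arrays, and the log2 FC was 1.81 (standard error 0.33, FDR = 0.00117 from limma), with 0.93 in QDBS/MCAO and 2.69 in YDBS/MCAO (interval of the difference -2.60 to -0.93, FDR of the difference = 0.0792 from limma). Mirlet7a1 and Mirlet7e, which share the seed GAGGUAG, fell by 1.01 and 1.05 on the log2 scale, and Mir92b by 1.33. In all 3 every stroke array was below every Sham array.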

How the data were processed

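Blood RNA of 9 rats was hybridised to Affymetrix Rat Gene ST arrays, 1 array for each rat. The authors computed the deposited log2 signals with Robust Multi-chip Average (RMA) in Affymetrix Expression Console 1.1, a method of background correction, quantile normalization and probe summary, for 30347 transcript clusters. The deposited values were used without further scaling. Clusters with several symbols (575) or no annotation entry (11261) were left out, and no filter on low signal was applied. Spots and scan dates were not used here, and precision is limited by how many arrays there are.

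All 9 arrays entered 1 fit of limma 3.58.1 in R 4.3.3 with 3 group means, and the pooled contrast was the mean of both models minus Sham. Genes were called where the Benjamini-Hochberg FDR was under 0.05 and the log2 FC beyond 1 in either direction, the thresholds of the study, whose methods name a t-test (run as an alternative, for 2 groups with equal variance). The procedure was tested on simulated data. The rats of a group are separate animals.

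The members and the 44 gene lists were chosen with earlier results of these data known. Lists overlap. Named genes were the 12 largest rises and falls among called genes without overlap of the groups, and the 6 widest gaps in each direction. From each list up to 3 called members without overlap were named, or its 2 brightest where none was called. Up to 6 called genes that differed most between models were added. The lack of overlap in the largest changes and the called list members follows from this choice. Genes outside this rule were chosen after their values were seen. Sequences and genomic spans came from RefSeq (GRCr8), matched by Entrez identifier or symbol, with a promoter sequence for 14504 of 18166 genes. Alternatives were other scalings (centring on the median or 75th percentile, quantile normalization, cyclic loess), filters on dim genes, other choices of clusters, fits and thresholds, a replicate block and leaving out each array.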

Additional observations from a re-analysis of the deposited data

Results flagged for a closer look

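Among 137 named genes with 6 stroke arrays, 5 had a single stroke array that stood apart from the other 5, where chance gives about 1 in 20. In the third QDBS/MCAO array the log2 signal of Ncl was 8.939 (next highest stroke array 8.51), that of Klrk1 7.952 (next 7.59), that of Psma4 7.175 (next 6.92) and that of Zfp91, a zinc finger ubiquitin ligase, 7.823 (next 7.60). Kcnab2, a potassium channel subunit that was not called, had 8.755 in the second QDBS/MCAO array (next 8.35). Of the 4 genes in the third array, all were called higher and kept their calls without it.

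The 2 stroke models differed at a FDR under 0.05 from limma in 8 named genes, each with a lower value in QDBS/MCAO than in YDBS/MCAO (n = 3 rats in each). The differences on the log2 scale were -2.418 for Siglec8, -1.952 for Clec4b2, -1.826 for Il1r2, -1.768 for Bmx, -1.74 for Wfdc15b, -1.705 for Serpinb10 and -1.624 for Slc12a2, the sodium, potassium and chloride cotransporter. Gata1, which fell in the pooled comparison, had a difference of -0.7589.

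Clusters that carry no single symbol were not part of the comparisons. Of 11836 such clusters, 488 met the thresholds as higher in the stroke arrays (4.12%) and 199 as lower (1.68%).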

How the results depend on the processing

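With centring on the 75th percentile 999 genes were called higher and 1378 lower, and the groups did not overlap for 2139 genes with stroke above and 10521 below. Quantile normalization called 432 lower, and cyclic loess left 3064 genes with stroke entirely below. Without the dimmest 40% of genes 2271 lay entirely below. Over all transcript clusters 387 were lower and 7740 entirely below. The FDR alone called 4010 and 5613, and a test against a log2 FC of 1 (treat in limma) 620 and 22. Genes that differed between models numbered 41 with quantile normalization, 141 without dim genes, 9 over all clusters, 49 with a trended robust variance and 528 with array weights. Leaving out single arrays gave 1434 to 1992 genes called higher, 155 to 256 lower and 0 to 291 that differed between models. The median of the neurotransmitter receptors relative to all genes was 0.002561 with quantile normalization and 0.02037 with cyclic loess, and that of the ubiquitin-conjugating enzymes -0.009927 with cyclic loess. Of 44 list medians taken relative to all genes, 8 changed sign in some alternative, 2 of them, glucocorticoid-induced and respiratory chain genes, with quantile normalization, cyclic loess and without dim genes alike. Beside the 3 medians with a value above, list medians moved by more than the spread of the stroke arrays in 20 lists with quantile normalization, 22 with cyclic loess, 17 without dim genes, 5 with array weights and 7 without the second Sham array. The cause of these differences was not tested.

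The same replicate number does not pair rats: residual correlations were -0.17 to 0.20 for equal and -0.13 to 0.22 for unequal numbers. With a replicate block 1779 genes were called higher, 187 lower, and 48 differed between models. The methods' t-test ended 7 of the named calls, and in no alternative did any of the 121 named genes that were called change sign. Of the 16 named genes that were not called, 5 changed sign in some alternative (Mbp, Hba-a1, Cdh1, Kcnab1 and Kcnab2). Depth does not apply to arrays, and dim genes near background limit what could be called.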
